A study of Homo sapiens with 6 samples.

Results

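PC-9ER, a lung adenocarcinoma line that has become resistant to tyrosine kinase inhibitors of EGFR, was compared with PC-9, the parental line it was derived from. The comparison uses 2 of the 6 libraries of the series, 1 per line, chosen by their cell line labels. PC-9 is an established human line that carries an activating EGFR mutation and is known for its sensitivity to these drugs. The labels do not spell out ER, and they give neither the selecting drug, whether drug was present at harvest, nor whether PC-9ER is 1 clone. Both lines were grown in RPMI-1640 with serum, and the protocols describe sequencing of total RNA after removal of ribosomal RNA. The series asks which signalling pathways accompany the acquired resistance, and its title names the trefoil peptide TFF3 and the Hippo pathway. With 1 library per line there is no replicate and no test: differences are described by size, the intervals cover counting error only, and the spread between cultures of a line is unknown.

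EGFR signals through RAS and the kinases RAF, MEK and ERK. ERK activity drives transcription factors of the FOS, EGR and PEA3 (ETV1, ETV4, ETV5) families and, in turn, its own brakes, the Sprouty and SPRED proteins and the DUSP phosphatases, so these transcripts are widely used as a readout of the pathway. A second branch through PI3K and mTOR feeds SREBP, the transcription factors that switch on the genes of cholesterol and fatty acid synthesis. The AKR1C enzymes, encoded side by side on chromosome 10, reduce steroids and reactive carbonyls and are known as targets of the oxidative stress factor NRF2.

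The libraries were of similar depth. Over the 16000 genes listed for both lines, PC-9ER had 17244589 counts and PC-9 had 16896849, and 14577 genes in PC-9ER and 14473 in PC-9 had at least 1 count. Expression is given as CPM, counts per 1000000 of that total, and a gene listed at 0 may have up to 3 counts, which is 0.174 CPM in PC-9ER and 0.178 CPM in PC-9. Ribosomal protein genes took 7.43% of the counts in PC-9ER and 5.87% in PC-9. All 8 epithelial markers were expressed in both lines and summed to 6759 CPM in PC-9ER, against 10320 CPM in PC-9. EPCAM alone was above its PC-9 value, at 405.5 CPM in PC-9ER and 383.5 CPM in PC-9. The other 7 were lower in PC-9ER by less than 2-fold, and 1 passed 2-fold after centring on transcript length. Of 6 lung lineage markers 4 were listed for both lines, and these 4 were scarce. In a wider lung lineage list 7 genes were measured. Among them LAMP3 was at 18.15 CPM in PC-9ER and 19.0 CPM in PC-9, and ABCA3 at 4.81 CPM in PC-9ER and 6.27 CPM in PC-9. NKX2-1 was at 1.16 CPM in PC-9ER and 0.769 CPM in PC-9, NAPSA had 2 counts in each, and SFTA2 had 0 counts in PC-9ER and 1 in PC-9. SFTPB, a surfactant protein, had 4 counts (0.232 CPM) in PC-9ER and 50 counts (2.96 CPM) in PC-9. Of 5 fibroblast markers 1 (COL1A1) was measured, and the list summed to 41.0 CPM in PC-9ER and 22.5 CPM in PC-9. Of 5 leukocyte markers 2 (LAPTM5 and CD68) were measured, with CD3E at 0 in both lines, and the list summed to 176.5 CPM in PC-9ER and 248 CPM in PC-9. The endothelial list summed to 55.5 CPM in PC-9ER and 220 CPM in PC-9: KDR and CLDN5 were at 0 in both lines, while CDH5 was at 32.8 CPM in PC-9ER and 151 CPM in PC-9, and PECAM1 at 22.7 CPM in PC-9ER and 68.7 CPM in PC-9.

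Most genes differed little. A lower value in a culture can come from fewer cells with the transcript or from less of it per cell, which cannot be told apart. A gene was counted as measured when it had at least 1 CPM in 1 of the lines, and as different when its CPM, after adding 2 counts to each library, differed by at least 2-fold (a log2 ratio of 1 or more either way). Of 12288 measured genes, 675 (5.49%) were higher by that size in PC-9ER and 935 (7.61%) were lower, while 8401 (68.4%) lay within 1.5-fold. At least 4-fold differences were fewer, with 149 genes higher and 213 lower. The median log2 ratio of all measured genes was 0.03. Across the 14975 genes with a count in either line, Spearman's rho was 0.965, as a description. The counts of list members that follow are to be read against the 2 percentages.

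**Figure D1:**
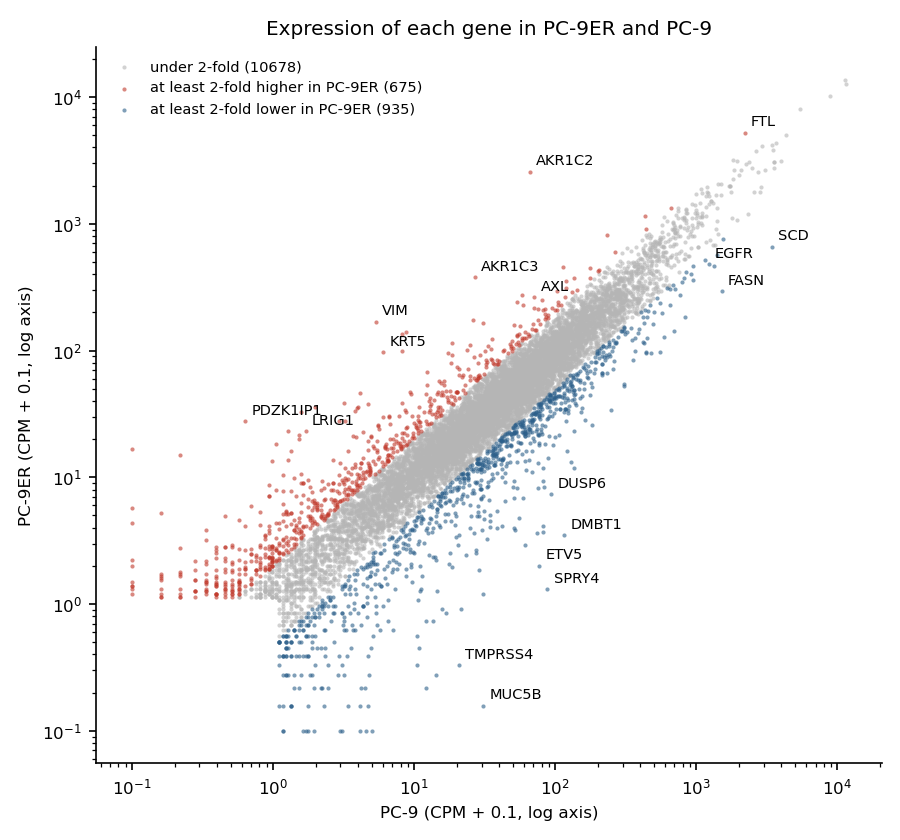
CPM plus 0.1 of each measured gene in PC-9ER (vertical, log axis) and PC-9 (horizontal, log axis), 1 library per line. The 675 genes at least 2-fold higher in PC-9ER are red, the 935 at least 2-fold lower are blue, and AKR1C2 and VIM stand far above the diagonal as SPRY4, ETV5 and MUC5B stand far below it.

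The ratio moved with transcript length. With the measured genes cut into 10 length classes of equal size, the median log2 ratio was 0.39 in the shortest class (177 to 1490 bases) and -0.47 in the longest (7631 to 109224 bases), and it declined at every step between. At least 2-fold lower genes made up 4.26% of the shortest class and 19.7% of the longest, and higher genes made up 8.35% of the shortest and 3.86% of the longest. In HCC827ER against HCC827 the median was 0.45 in the shortest class and -1.16 in the longest. In PC-9GR against PC-9, both deposited in one table, it was 0.28 in the shortest class and -0.38 in the longest. That pair shares the PC-9 library with this one. PC-9ER and HCC827ER are deposited in another table than the parental lines, so in the ER pairs table and line cannot be told apart. Each list median is therefore followed by a length-centred one, in which the median of genes of similar transcript length (20 bins) was subtracted from each ratio, and list counts on that scale are given where they differ. On that scale 627 genes were higher (5.14%) and 780 were lower (6.4%) by 2-fold or more. Of the 664 higher genes with a known length 520 passed on both scales, as did 668 of 922 lower ones. The part of transcript length in single results was not tested.

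**Figure D2:**
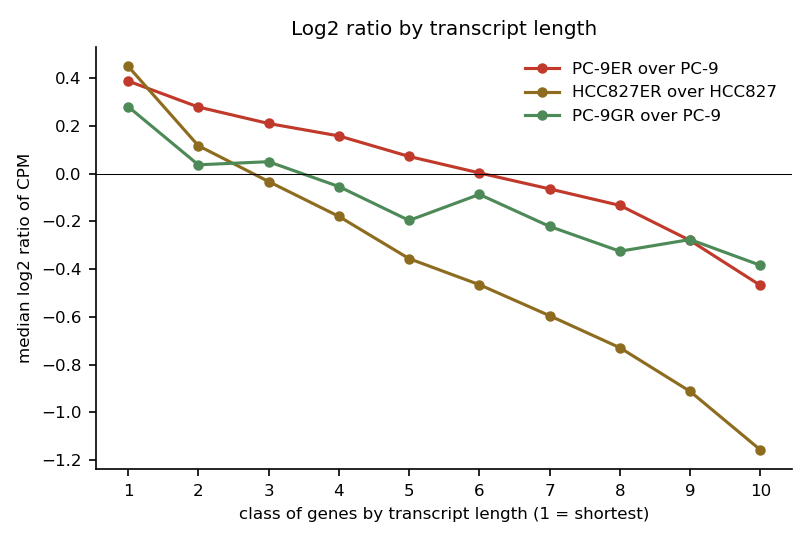
Median log2 ratio of CPM (vertical) in each of 10 classes of the measured genes by transcript length (horizontal, 1 = shortest), for PC-9ER over PC-9, HCC827ER over HCC827 and PC-9GR over PC-9. All 3 lines run downward, and the PC-9ER line crosses 0 near class 6.

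EGFR (chromosome 7, 55019021 to 55211628, plus strand, GRCh38), the receptor these inhibitors target, had 8293 counts (481 CPM) in PC-9ER and 20631 counts (1221 CPM) in PC-9. It was thus 2.54-fold lower in PC-9ER (95% counting interval 2.48 to 2.61). EGFR is a long transcript of 9821 bases, and its length-centred log2 ratio was -0.84 against -1.34 uncentred, so the 2-fold size was met only without centring. The sister receptors differed less: ERBB2 was at 89.9 CPM in PC-9ER and 135 CPM in PC-9, and ERBB3, the kinase-poor partner, at 87.2 CPM in PC-9ER and 120.5 CPM in PC-9. ERBB4 had 1 count in PC-9ER and 5 in PC-9. None of the 10 measured neighbours of EGFR on chromosome 7p11 differed 2-fold, and their median log2 ratio was -0.10 (-0.46 length-centred, against -0.84 for EGFR on that scale). SEC61G, a subunit of the protein translocation channel, was at 139 CPM in PC-9ER and 146.5 CPM in PC-9, and LANCL2 at 71.3 CPM in PC-9ER and 77.5 CPM in PC-9.

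The 8 measured ERBB ligands split into equal groups, 4 higher and 4 lower. TGFA, a high-affinity EGFR ligand, was at 21.6 CPM in PC-9ER and 76.1 CPM in PC-9, and HBEGF, which also binds ERBB4, at 25.5 CPM in PC-9ER and 84.9 CPM in PC-9. EGF itself was scarce, with 0.754 CPM in PC-9ER and 2.96 CPM in PC-9, as was NRG2, with 0.638 CPM in PC-9ER and 3.08 CPM in PC-9. Among the higher ligands, epiregulin (EREG) was at 43.5 CPM in PC-9ER and 18.2 CPM in PC-9, and amphiregulin (AREG) at 9.45 CPM in PC-9ER and 3.20 CPM in PC-9. Betacellulin (BTC) was at 13.5 CPM in PC-9ER and 6.45 CPM in PC-9, and NRG4 at 1.86 CPM in PC-9ER and 0.71 CPM in PC-9. On the length-centred scale the 4 lower ligands stayed past 2-fold and 2 of the 4 higher ones did.

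Of 13 adaptors and regulators of ERBB receptors, LRIG1 alone was past 2-fold. LRIG1, a membrane protein that promotes EGFR degradation, had 397 counts (23.0 CPM) in PC-9ER and 27 counts (1.598 CPM) in PC-9, a 14.4-fold difference (9.75 to 22.1). ERRFI1 (MIG6), a direct EGFR inhibitor, was at 106 CPM in PC-9ER and 175 CPM in PC-9, and the ubiquitin ligase CBL at 39.7 CPM in PC-9ER and 70.7 CPM in PC-9. Of 19 RAS, RAF, MEK and ERK genes and their regulators, NF1 among them, only MRAS passed 2-fold. MRAS, a RAS relative that binds the SHOC2 phosphatase complex, was at 7.60 CPM in PC-9ER and 1.77 CPM in PC-9.

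The negative feedback genes of ERK were far lower in PC-9ER. All 10 listed genes were measured, 7 were at least 2-fold lower and 0 higher, and the median log2 ratio was -1.55 (-1.58 length-centred), against 0.03 over all genes. SPRY4 (chromosome 5, 142310427 to 142326455, minus strand), a Sprouty inhibitor of RAS activation, had 21 counts (1.22 CPM) in PC-9ER and 1481 counts (87.7 CPM) in PC-9, and was 72.0-fold lower (46.9 to 117). DUSP6 (chromosome 12, 89347232 to 89353271, minus strand), the phosphatase that inactivates ERK in the cytoplasm, had 126 counts (7.31 CPM) in PC-9ER and 1585 counts (93.8 CPM) in PC-9, and was 12.8-fold lower (10.7 to 15.5). SPRY1 followed at 6.73 CPM in PC-9ER and 51.2 CPM in PC-9. The SPRED proteins, which bring the RAS inactivator NF1 to the membrane, were lower too, with SPRED2 at 11.4 CPM in PC-9ER and 61.7 CPM in PC-9. DUSP5, a nuclear ERK phosphatase, was at 81.7 CPM in PC-9ER and 178 CPM in PC-9. Smaller differences were found for SPRY2, at 6.21 CPM in PC-9ER and 11.7 CPM in PC-9, and DUSP4, at 154 CPM in PC-9ER and 238 CPM in PC-9. DUSP7 did not differ beyond counting error, with 16.3 CPM in PC-9ER and 15.4 CPM in PC-9.

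Transcription factors driven by ERK showed a divided pattern. Of 23 measured, 9 were at least 2-fold lower and 1 was higher, with a median log2 ratio of -0.63 (-0.83 length-centred). The 3 PEA3 factors, ETS proteins that ERK induces and stabilises, were lower by more than 10-fold each. ETV5 (chromosome 3, 186046308 to 186110318, minus strand) had 33 counts (1.91 CPM) in PC-9ER and 1296 counts (76.7 CPM) in PC-9, 40.1-fold lower (28.4 to 58.5). ETV4 was at 11.7 CPM in PC-9ER and 135 CPM in PC-9, and ETV1 had 4 counts in PC-9ER and 175 in PC-9. The immediate early factor EGR1 was scarce in both, with 3 counts in PC-9ER and 52 in PC-9, a ratio of 17.7 (5.73 to 88.6). FOS was at 1.22 CPM in PC-9ER and 7.16 CPM in PC-9, its slower relative FOSL1 at 41.1 CPM in PC-9ER and 95.2 CPM in PC-9, and MAFF, a small MAF protein, at 13.7 CPM in PC-9ER and 64.6 CPM in PC-9. Other factors were nearer to equal: JUN was at 98.0 CPM in PC-9ER and 129 CPM in PC-9, and MYC at 202 CPM in PC-9ER and 270.2 CPM in PC-9. ATF3, a stress-induced factor, was the 1 higher gene, with 9.16 CPM in PC-9ER and 3.02 CPM in PC-9.

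Among 17 measured effectors and markers of ERK output, 10 were at least 2-fold lower and 1 was higher, with a median log2 ratio of -1.44 (-1.19 length-centred, with 9 lower). CCND1, cyclin D1, which opens the cell cycle at G1, had 1710 counts (99.2 CPM) in PC-9ER and 6243 counts (369.5 CPM) in PC-9, 3.73-fold lower (3.53 to 3.93). The receptor kinase EPHA2 was at 25.7 CPM in PC-9ER and 181 CPM in PC-9, the membrane protein EMP1 at 125 CPM in PC-9ER and 449 CPM in PC-9, and the chromatin protein HMGA2 at 164 CPM in PC-9ER and 422 CPM in PC-9. PHLDA1, a widely used MEK output transcript, was at 44.5 CPM in PC-9ER and 136 CPM in PC-9. IL11, a cytokine of the IL6 family, went the other way, with 23.9 CPM in PC-9ER and 5.50 CPM in PC-9.

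**Figure D3:**
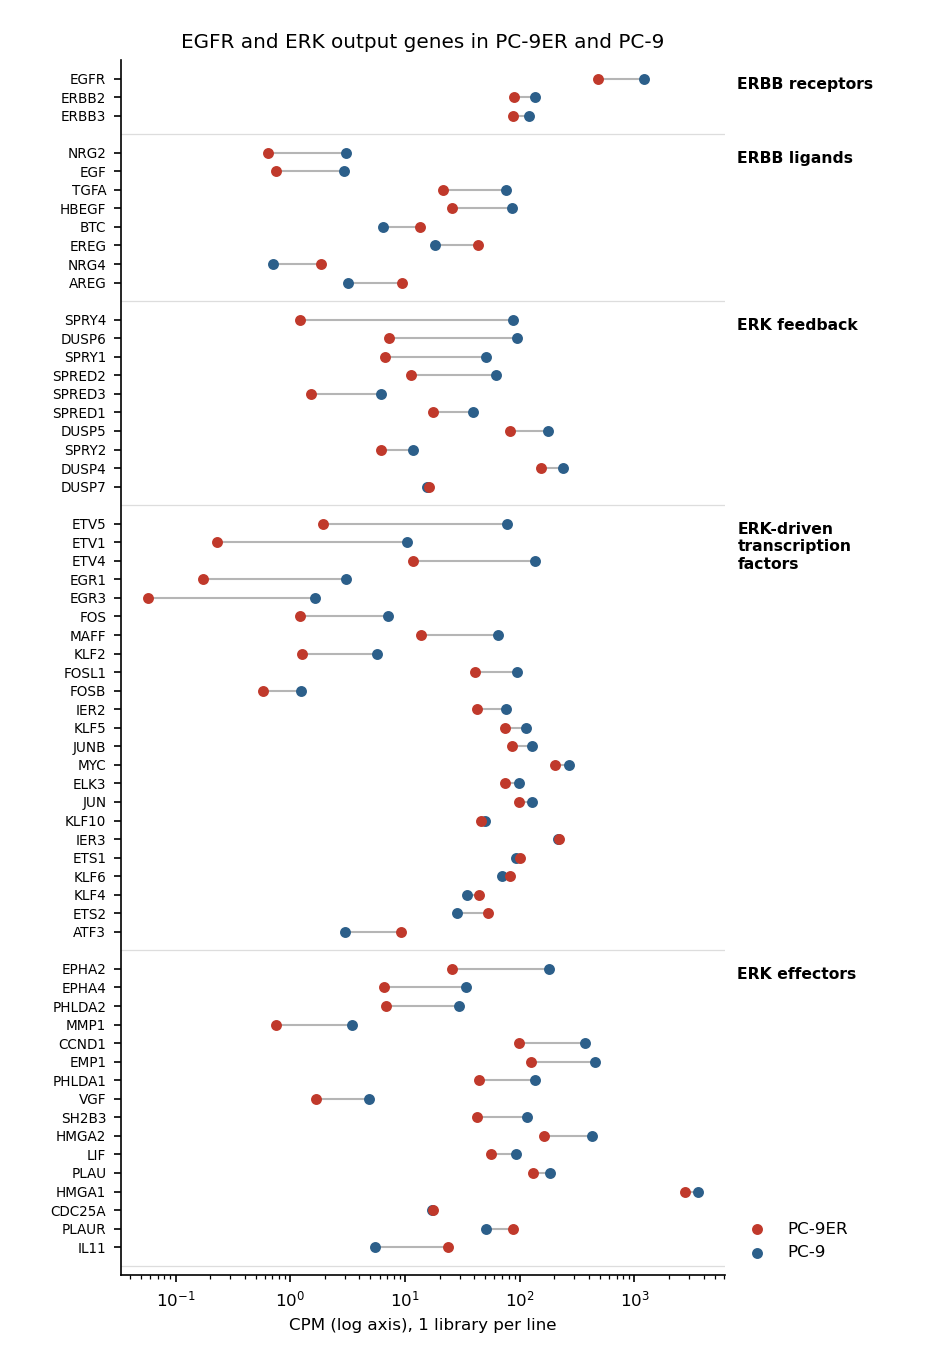
CPM (horizontal, log axis) of measured ERBB receptors, ERBB ligands, ERK feedback genes, ERK-driven transcription factors and ERK effectors, 1 library per line, red for PC-9ER and blue for PC-9. The PC-9ER point lies left of the PC-9 point for 9 of 10 feedback genes, and the longest spans are those of SPRY4, ETV5 and ETV1.

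The same ERK genes can be read in HCC827ER against HCC827, a pair that shares no library with this one. The median of the feedback genes there was -1.28 (-0.63 length-centred) and that of the effectors -1.90 (-1.61 length-centred), with DUSP6 at 0.347 CPM in HCC827ER and 15.9 CPM in HCC827, and SPRY4 at 0.925 CPM in HCC827ER and 17.96 CPM in HCC827. ETV5 was at 12.9 CPM in HCC827ER and 34.7 CPM in HCC827. The background of that pair was wider, where 11.3% of 12597 genes were higher and 28.3% lower by the 2-fold size.

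Receptors that can stand in for EGFR were mostly within 2-fold. Of 14 measured, 3 were higher and 1 lower (4 and 1 length-centred). AXL (chromosome 19, 41219203 to 41261766, plus strand), the receptor for GAS6, had 4525 counts (262 CPM) in PC-9ER and 1196 counts (70.8 CPM) in PC-9, 3.71-fold higher (3.48 to 3.95). Its ligand GAS6 was at 74.3 CPM in PC-9ER and 42.0 CPM in PC-9. FGFR1 was at 32.6 CPM in PC-9ER and 12.7 CPM in PC-9, whereas its ligand FGF2 had 1 count in PC-9ER and 2 in PC-9. ROS1 was barely above the filter at 1.10 CPM in PC-9ER and 0.414 CPM in PC-9. ROR1, a receptor for WNT5A, was the lower one, with 12.1 CPM in PC-9ER and 33.7 CPM in PC-9. MET, whose amplification is a known route of resistance, had 2693 counts (156 CPM) in PC-9ER and 2762 counts (163.5 CPM) in PC-9, and the counting interval of its ratio, 0.906 to 1.01, includes equality. IGF1R was at 39.0 CPM in PC-9ER and 69.2 CPM in PC-9. Of 13 measured ligands for such receptors 3 were higher and 5 lower, among them PDGFB, at 88.3 CPM in PC-9ER and 234 CPM in PC-9.

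Genes of the sterol synthesis list were lower as a group. Of 24 measured members 12 were at least 2-fold lower and 0 higher, all 24 had a log2 ratio below 0, and the median was -0.996 (-1.09 length-centred, with 15 lower). HMGCS1, which makes HMG-CoA from acetyl units, was at 360 CPM in PC-9ER and 950.0 CPM in PC-9. DHCR7, which acts in the last steps to cholesterol, was at 230.5 CPM in PC-9ER and 648 CPM in PC-9, and INSIG1, which holds SREBP back, at 141 CPM in PC-9ER and 325 CPM in PC-9. TM7SF2, a sterol reductase, was at 12.8 CPM in PC-9ER and 75.5 CPM in PC-9. The sterol regulator SREBF2 was under 2-fold, with 331 CPM in PC-9ER and 576 CPM in PC-9, and PMVK, phosphomevalonate kinase, was near equal, with 11.6 CPM in PC-9ER and 11.8 CPM in PC-9.

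Of the fatty acid synthesis genes, 9 of 20 measured members were at least 2-fold lower and 0 higher, with a median log2 ratio of -0.83. On the length-centred scale 6 were lower and 1 higher, with a median of -0.76. SCD (chromosome 10, 100347124 to 100364834, plus strand), the desaturase that makes oleate, had 11355 counts (658.5 CPM) in PC-9ER and 57968 counts (3431 CPM) in PC-9, 5.21-fold lower (5.11 to 5.32). FASN (chromosome 17, 82078333 to 82098332, minus strand), fatty acid synthase, had 5087 counts (295 CPM) in PC-9ER and 25529 counts (1511 CPM) in PC-9, 5.12-fold lower (4.97 to 5.28). By CPM lost these were the first and second of all genes. SREBF1, the SREBP gene that drives this branch, was at 83.0 CPM in PC-9ER and 260.2 CPM in PC-9. The upstream enzymes ACACA, ACLY and ACSS2 were between 2.03-fold and 3.21-fold lower, and of these ACSS2 alone stayed past 2-fold after centring on length. FADS2, a polyunsaturated fatty acid desaturase, was at 174 CPM in PC-9ER and 140 CPM in PC-9, against the direction of its neighbour FADS1, at 142 CPM in PC-9ER and 291 CPM in PC-9. In HCC827ER against HCC827 the list medians were -0.47 for sterol genes (-0.11 length-centred) and -0.90 for fatty acid genes (-0.40 length-centred).

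Many promoters of the sterol list hold a common sequence feature. The feature was counted over all measured members whatever their ratio, so it describes the list and not the difference between the lines. SREBP is known to act together with NF-Y, which binds the CCAAT box, so the 250 bases before the RefSeq start (GRCh38.p14) were searched for CCAAT on either strand. It was found in 14 of the 17 sterol genes with a promoter in the table (82.4%), against 35.1% of 10096 measured genes and 33.0% of all 27305 promoters. Fatty acid genes held it in 6 of 19 promoters (31.6%). The genes at least 2-fold lower as a whole held it in 30.3%, and those at least 2-fold higher in 33.0%. CCAAT was also in 9 of 18 promoters of NRF2 targets and 4 of 6 of aldo-keto reductases. Both of these lists had a positive median log2 ratio, so the feature was not particular to lists that were lower. Among ERK genes it was in 5 of 11 promoters of effectors, 5 of 15 of driven factors and 1 of 8 of feedback genes. The AP-1 motif TGANTCA was in 3 of 11 promoters of ERK effectors, 1 of 8 of the feedback genes and 0 of 15 of the ERK-driven factors, against 3.95% of measured genes. Genes at least 2-fold lower held AP-1 in 6.06% and genes at least 2-fold higher in 6.26%. The ETS motif CCGGAAGT was in none of those 3 ERK groups, against 7.52% of measured genes. That motif was scarce in all genes that differed, at 1.55% of those at least 2-fold lower and 1.33% of those at least 2-fold higher. Both strands were searched in each case. These matches describe letters in a window and not bound sites. The promoters of SCD, from the fatty acid list, and of HMGCS1 and DHCR7, from the sterol list, are shown as examples with CCAAT. Each holds 2 CCAAT boxes, in capitals (CCAAT, or ATTGG for the other strand). In that order the promoters are at chr10:100346983-100347232 (plus strand), chr5:43313413-43313662 (minus strand) and chr11:71448394-71448643 (minus strand).
SCD: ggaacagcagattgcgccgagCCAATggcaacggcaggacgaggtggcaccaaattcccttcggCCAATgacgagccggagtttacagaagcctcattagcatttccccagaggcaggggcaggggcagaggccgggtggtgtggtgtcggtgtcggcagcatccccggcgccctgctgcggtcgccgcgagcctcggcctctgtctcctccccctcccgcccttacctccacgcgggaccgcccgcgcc
HMGCS1: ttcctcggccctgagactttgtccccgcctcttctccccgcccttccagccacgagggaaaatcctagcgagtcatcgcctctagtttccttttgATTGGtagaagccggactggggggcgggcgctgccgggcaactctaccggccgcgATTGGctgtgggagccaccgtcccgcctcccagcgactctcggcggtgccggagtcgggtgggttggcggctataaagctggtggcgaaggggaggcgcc
DHCR7: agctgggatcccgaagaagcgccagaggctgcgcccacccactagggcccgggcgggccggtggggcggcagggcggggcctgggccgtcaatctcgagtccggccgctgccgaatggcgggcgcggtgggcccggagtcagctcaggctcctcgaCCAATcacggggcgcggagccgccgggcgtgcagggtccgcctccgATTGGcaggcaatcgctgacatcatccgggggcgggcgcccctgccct
The first box began 229 bases before the RefSeq start in SCD, 155 in HMGCS1 and 94 in DHCR7.

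The AKR1C genes were far higher in PC-9ER. Of 8 measured aldo-keto reductases 4 were at least 2-fold higher and 0 lower, with a median log2 ratio of 0.86 (0.53 length-centred). AKR1C2 (chromosome 10, 4987400 to 5018031, minus strand) had 44452 counts (2578 CPM) in PC-9ER and 1116 counts (66.0 CPM) in PC-9, 39.0-fold higher (36.8 to 41.5). AKR1C1 (chromosome 10, 4963253 to 4983283, plus strand) had 2306 counts (134 CPM) in PC-9ER and 136 counts (8.05 CPM) in PC-9. AKR1C3 (chromosome 10, 5035354 to 5107686, plus strand), which makes testosterone from androstenedione and reduces prostaglandins, had 6560 counts (380 CPM) in PC-9ER and 454 counts (26.9 CPM) in PC-9, 14.2-fold higher (12.9 to 15.6). Of the AKR1B genes on chromosome 7, a pair differed by less than 2-fold: AKR1B10 was at 316 CPM in PC-9ER and 447 CPM in PC-9, and AKR1B1, aldose reductase, at 4309 CPM in PC-9ER and 3673 CPM in PC-9. The third, AKR1B15, was higher, at 24.7 CPM in PC-9ER and 8.76 CPM in PC-9. In the other ER pair AKR1C2 was at 428.5 CPM in HCC827ER and 0.757 CPM in HCC827, and AKR1C3 at 165.5 CPM in HCC827ER and 13.97 CPM in HCC827.

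The split of reads between AKR1C1 and AKR1C2 is uncertain, because their coding sequences are 98.0% identical over 969 bases, whereas AKR1C3 is 91.0% identical to AKR1C2. Their promoters, shown here for that likeness, were 99.6% identical over 246 aligned bases, at chr10:4963165-4963414 (AKR1C1, plus strand) and chr10:5003858-5004107 (AKR1C2, minus strand), and each holds 1 CCAAT box on the other strand (ATTGG in capitals).
AKR1C1: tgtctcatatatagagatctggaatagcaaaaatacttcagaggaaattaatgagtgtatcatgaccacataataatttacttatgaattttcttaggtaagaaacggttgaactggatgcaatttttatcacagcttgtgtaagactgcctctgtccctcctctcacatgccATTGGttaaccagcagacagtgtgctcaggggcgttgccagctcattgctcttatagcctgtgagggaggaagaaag
AKR1C2: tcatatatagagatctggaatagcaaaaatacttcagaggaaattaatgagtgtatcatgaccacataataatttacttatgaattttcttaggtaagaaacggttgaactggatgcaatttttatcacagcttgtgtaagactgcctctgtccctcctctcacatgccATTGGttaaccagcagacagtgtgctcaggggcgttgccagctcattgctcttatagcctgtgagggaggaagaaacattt
The promoter of AKR1C3 was 77.2% identical to that of AKR1C2.

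Of 26 measured NRF2 targets 5 were higher and 2 lower, with a median log2 ratio of 0.30. On the length-centred scale 2 were higher and 2 lower, with a median of 0.13, and FTL (0.81), HMOX1 (0.80) and SRXN1 (0.90) were under the 2-fold size. FTL, the ferritin light chain that stores iron, had 90078 counts (5224 CPM) in PC-9ER and 37135 counts (2198 CPM) in PC-9, the gene that gained most by CPM. HMOX1, heme oxygenase, was at 64.7 CPM in PC-9ER and 31.3 CPM in PC-9, and SRXN1, which repairs peroxiredoxins, at 228 CPM in PC-9ER and 110.4 CPM in PC-9. The classic target NQO1 was under 2-fold, with 912.5 CPM in PC-9ER and 697 CPM in PC-9. GCLC, which acts in glutathione synthesis, was near equal, at 124 CPM in both lines. GPX2, a glutathione peroxidase of epithelia, was strongly lower, with 4.06 CPM in PC-9ER and 81.7 CPM in PC-9, as was the efflux pump ABCC2, with 15.9 CPM in PC-9ER and 68.4 CPM in PC-9. The core letters of the antioxidant response element that NRF2 binds, TGACNNNGC, were in 6 of 18 NRF2 target promoters and 1 of 6 aldo-keto promoters, against 12.1% of measured genes. They were also in 4 of 11 promoters of ERK effectors, 1 of 8 of ERK feedback genes and 2 of 15 of ERK-driven factors. Sterol genes held them in 0 of 17 promoters and fatty acid genes in 1 of 19. Genes at least 2-fold higher held them in 11.8% and genes at least 2-fold lower in 9.73%. Of 3 measured metallothioneins, which bind metals, 2 were higher, with MT2A at 813 CPM in PC-9ER and 231 CPM in PC-9, and so was CYP1B1, a cytochrome P450 induced through the aryl hydrocarbon receptor, at 454.5 CPM in PC-9ER and 113 CPM in PC-9.

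Of 15 measured keratins 3 were higher and 2 lower (3 and 3 length-centred), with a median log2 ratio of 0.40 (0.15 length-centred). The 3 higher ones are basal or stress keratins: KRT5 had 1683 counts (97.6 CPM) in PC-9ER and 100 counts (5.92 CPM) in PC-9, 16.5-fold higher (13.5 to 20.4). KRT6A was at 18.3 CPM in PC-9ER and 0.947 CPM in PC-9, and KRT17 at 20.1 CPM in PC-9ER and 1.42 CPM in PC-9. KRT6B and KRT16 were under 2-fold, with KRT6B at 65.5 CPM in PC-9ER and 35.7 CPM in PC-9, and KRT14 had 2 counts in PC-9ER and 0 in PC-9. KRT15, another basal keratin, was lower, with 8.003 CPM in PC-9ER and 29.7 CPM in PC-9, as was KRT13, with 1.10 CPM in PC-9ER and 3.79 CPM in PC-9. The simple keratins of lung epithelium were lower by less than 2-fold, with KRT7 at 1769 CPM in PC-9ER and 2818 CPM in PC-9, and KRT19 at 1066 CPM in PC-9ER and 1939 CPM in PC-9 (log2 ratio -0.86, -1.22 length-centred). Over the 14 measured squamous and basal genes 7 were higher and 2 lower, with a median log2 ratio of 1.00 (0.69 length-centred, with 5 higher and 2 lower), and 5 of the 14 stand in the keratin list too. KRT5 and KRT6A were at 0 in both HCC827 and HCC827ER.

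**Figure D4:**
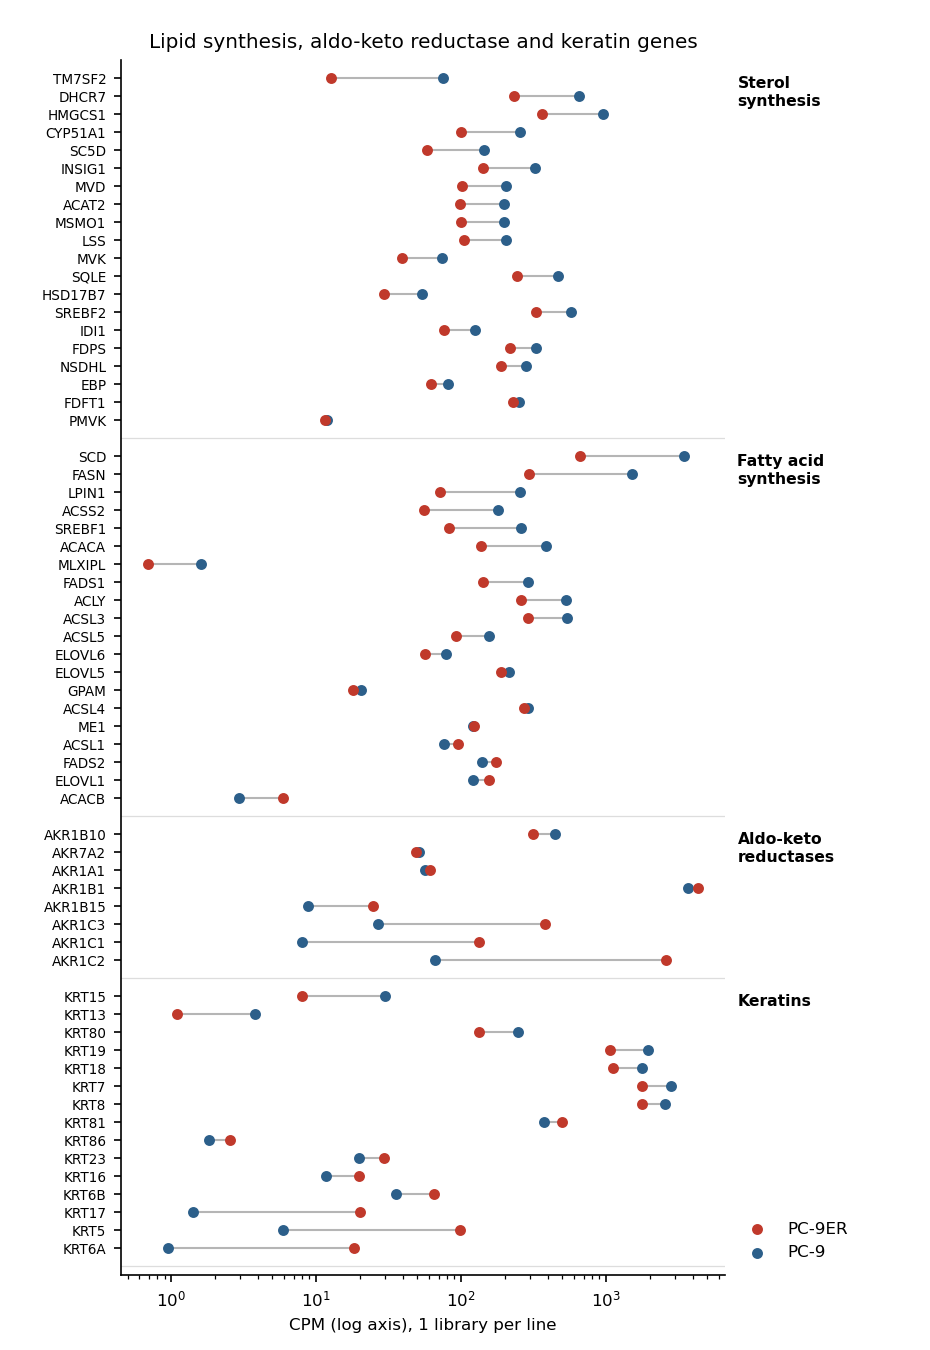
CPM (horizontal, log axis) of measured sterol synthesis, fatty acid synthesis, aldo-keto reductase and keratin genes, 1 library per line, red for PC-9ER and blue for PC-9. All sterol genes drawn have their PC-9ER point at or left of the PC-9 point, and AKR1C1, AKR1C2, AKR1C3, KRT5, KRT6A and KRT17 show the opposite order.

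A subset of mesenchymal genes was higher in PC-9ER, and epithelial junction genes were mostly within 2-fold. VIM (chromosome 10, 17228259 to 17237593, plus strand), the vimentin filament, had 2909 counts (169 CPM) in PC-9ER and 89 counts (5.27 CPM) in PC-9, 32.0-fold higher (25.9 to 40.0). TAGLN, transgelin, an actin-binding protein, was at 27.5 CPM in PC-9ER and 3.14 CPM in PC-9, and SNAI2, the repressor SLUG, at 38.3 CPM in PC-9ER and 8.11 CPM in PC-9. In all, 7 of 21 measured mesenchymal genes were higher and 3 lower, with a median log2 ratio of 0.57 (0.91 length-centred, with 10 higher and 3 lower). TNC, tenascin, was a lower one, with 55.1 CPM in PC-9ER and 160.0 CPM in PC-9. The repressor ZEB1 stayed under 1 CPM in both lines, and CDH2, N-cadherin, had 1 count in each. Outside that list, the secreted matrix protein TGFBI was at 1155 CPM in PC-9ER and 435 CPM in PC-9, and the tubulin TUBB6 at 141 CPM in PC-9ER and 8.64 CPM in PC-9. Of 30 epithelial genes 4 were at least 2-fold lower and 0 higher (median -0.35, and -0.36 with 5 lower after centring on length). CDH1, E-cadherin, was at 252 CPM in PC-9ER and 322 CPM in PC-9, and the epithelial factor GRHL2 at 102 CPM in PC-9ER and 94.3 CPM in PC-9. TJP3, a tight junction scaffold, was the most reduced of the 30, with 23.8 CPM in PC-9ER and 66.3 CPM in PC-9.

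Secretory and mucin genes were lower. TFF3 had 0 counts in PC-9 and is not listed in the table that holds PC-9ER, so no value can be given for PC-9ER. Of 9 measured mucin and trefoil genes and their regulators 7 were lower and 1 higher, and the median log2 ratio was -2.16 (-2.59 length-centred). MUC5B (chromosome 11, 1223066 to 1262172, plus strand), a gel-forming airway mucin, had 1 count in PC-9ER and 517 counts (30.6 CPM) in PC-9, a ratio of 528 with a counting interval of 94.3 to 20880. SPDEF, the transcription factor of goblet cells, was at 4.70 CPM in PC-9ER and 55.5 CPM in PC-9, and AGR2, which folds mucins, at 3.13 CPM in PC-9ER and 33.0 CPM in PC-9. The membrane mucin MUC16 was at 126 CPM in PC-9ER and 366 CPM in PC-9, and MUC1 at 13.1 CPM in PC-9ER and 33.0 CPM in PC-9, while MUC4 was near equal at 100.1 CPM in PC-9ER and 106 CPM in PC-9. TFF1 had 3 counts in PC-9ER and 20 in PC-9, and TFF2 2 counts in PC-9ER and 9 in PC-9. The adhesion molecules CEACAM5 and CEACAM6 were also lower, with CEACAM6 at 463 CPM in PC-9ER and 1341 CPM in PC-9. DMBT1, a secreted scavenger of mucosal surfaces, was at 3.42 CPM in PC-9ER and 115 CPM in PC-9, and the serine protease TMPRSS4 had 4 counts in PC-9ER and 348 in PC-9.

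Inflammatory genes were mixed, with 9 of 26 measured members higher and 4 lower. IL6 (chromosome 7, 22725884 to 22732002, plus strand) had 373 counts (21.6 CPM) in PC-9ER and 24 counts (1.42 CPM) in PC-9, 15.2-fold higher (10.1 to 24.1). IL1A was at 30.6 CPM in PC-9ER and 6.51 CPM in PC-9, IL1B at 45.6 CPM in PC-9ER and 14.4 CPM in PC-9, and the complement factor CFB at 123 CPM in PC-9ER and 35.6 CPM in PC-9. ICAM1, the leukocyte adhesion molecule, was lower, with 162 CPM in PC-9ER and 492 CPM in PC-9, and complement C3 was at 371.5 CPM in PC-9ER and 820 CPM in PC-9. CXCL8 did not differ beyond counting error, at 15.8 CPM in PC-9ER and 14.4 CPM in PC-9.

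The Hippo coactivators were lower by about the same factor. YAP1 had 1816 counts (105 CPM) in PC-9ER and 3460 counts (205 CPM) in PC-9, 1.94-fold lower (1.84 to 2.06), and WWTR1 (TAZ) had 839 counts (48.7 CPM) in PC-9ER and 1717 counts (102 CPM) in PC-9, 2.09-fold lower (1.92 to 2.27). Of their DNA-binding partners, TEAD1 was at 57.1 CPM in PC-9ER and 130 CPM in PC-9, and TEAD2 at 53.1 CPM in PC-9ER and 16.04 CPM in PC-9. Length-centred log2 ratios were -0.79 for YAP1, -0.97 for WWTR1 and -0.77 for TEAD1, all under the 2-fold size. The 19 measured YAP and TAZ targets showed no common direction, with 2 higher, 2 lower and a median log2 ratio of -0.09 (0.02 length-centred, with 3 higher and 1 lower). CCN1 was at 165 CPM in PC-9ER and 116 CPM in PC-9, and ANKRD1 at 1.33 CPM in PC-9ER and 5.50 CPM in PC-9. Of 27 Hippo kinases and regulators 5 were lower and 0 higher, FAT1 and AMOT among them, with a median of -0.46 (-0.23 length-centred, with 4 lower and 1 higher). LATS2 was at 14.9 CPM in PC-9ER and 14.7 CPM in PC-9.

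Proliferation genes ran slightly above PC-9. Of 35 measured 30 had a log2 ratio above 0, with a median of 0.46 (0.36 length-centred), but only UBE2C, an anaphase ubiquitin enzyme, passed 2-fold, at 214.5 CPM in PC-9ER and 95.4 CPM in PC-9 (0 genes length-centred). CCNB1, cyclin B1, was at 331 CPM in PC-9ER and 178 CPM in PC-9, whereas MKI67 was at 368 CPM in PC-9ER and 545 CPM in PC-9. All 36 nuclear genes of oxidative phosphorylation had a ratio above 0, with 1 past 2-fold and a median of 0.50 that was 0.21 after centring on length. TERT, the catalytic subunit of telomerase, was at 3.54 CPM in PC-9ER and 74.5 CPM in PC-9.

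Of 27 measured apoptosis genes 3 were higher and 4 lower (2 and 2 length-centred). The survival gene BCL2L1, which encodes BCL-xL, had 1355 counts (78.6 CPM) in PC-9ER and 3630 counts (215 CPM) in PC-9, 2.73-fold lower (2.57 to 2.91). BCL2 itself was at 3.13 CPM in PC-9ER and 7.575 CPM in PC-9, and XIAP, a caspase inhibitor, at 40.8 CPM in PC-9ER and 92.3 CPM in PC-9, both under 2-fold after centring on length. Other survival members, MCL1 and BCL2L2, were under 2-fold. BIRC5, survivin, of another family, was higher, at 112 CPM in PC-9ER and 47.9 CPM in PC-9, as was the death activator BMF, at 83.5 CPM in PC-9ER and 38.3 CPM in PC-9. BCL2L11 (BIM), a known mediator of cell death under EGFR inhibitors, was at 43.4 CPM in PC-9ER and 41.1 CPM in PC-9.

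Of 14 measured integrin subunits 5 were lower and 0 higher, with a median of -0.67 (-0.48 length-centred, with 3 lower). ITGA2, a collagen receptor chain, was at 96.8 CPM in PC-9ER and 557 CPM in PC-9, ITGB8, which activates TGF-beta, at 3.94 CPM in PC-9ER and 34.6 CPM in PC-9, and ITGA6, the laminin receptor chain, at 307 CPM in PC-9ER and 653.5 CPM in PC-9. The ubiquitous partner ITGB1 was at 847 CPM in PC-9ER and 710 CPM in PC-9. Of 13 measured laminins and hemidesmosome genes 3 were lower and 0 higher, with a median of -0.63, and 1 was lower after centring on length, with a median of -0.35. Of 13 S100 genes 5 were lower and 1 higher (6 and 0 length-centred), with S100A9 at 84.7 CPM in PC-9ER and 356 CPM in PC-9. Among 12 Notch genes 5 were lower and 1 higher (3 and 1 length-centred, where NOTCH1 at -0.80 and JAG1 at -0.75 lost the 2-fold size), and the median of -0.66 (-0.37 length-centred) turned to 0.055 with no filter on low counts. The target HES1 was at 18.3 CPM in PC-9ER and 40.2 CPM in PC-9, and the receptor NOTCH1 at 28.1 CPM in PC-9ER and 65.5 CPM in PC-9. In the Wnt list 3 of 19 were higher and 4 lower (3 and 5 length-centred): WNT5A was at 19.95 CPM in PC-9ER and 6.98 CPM in PC-9, and WNT7A at 18.7 CPM in PC-9ER and 76.2 CPM in PC-9.

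**Figure D5:**
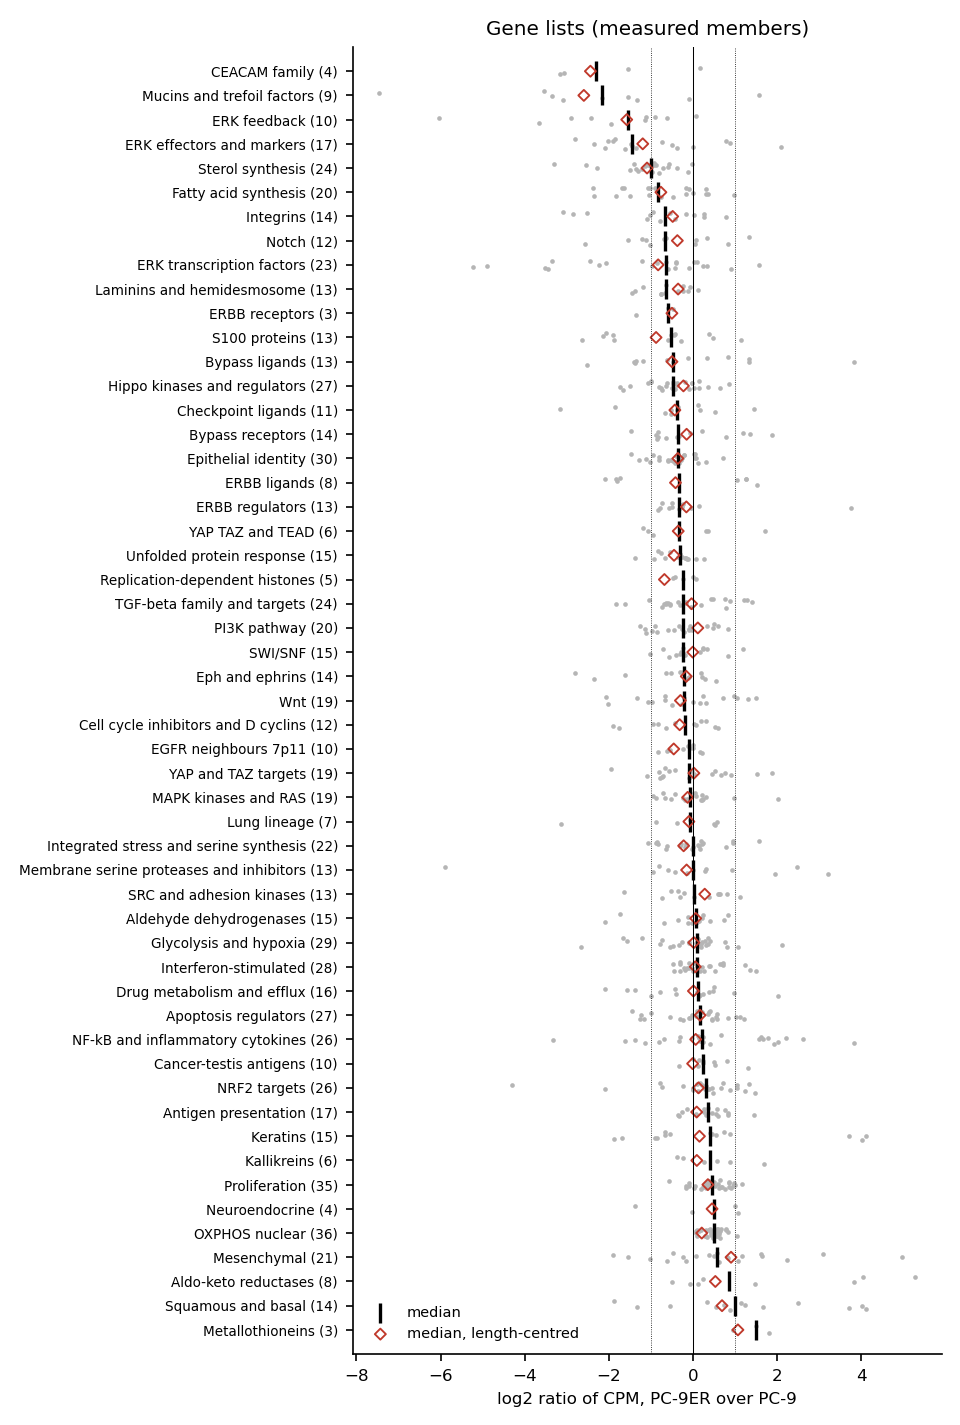
Log2 ratio of CPM, PC-9ER over PC-9 (horizontal), of the measured members (grey points) of each gene list, with the number measured in brackets, the median as a black bar and the length-centred median as an open red diamond; dotted lines mark 2-fold. The CEACAM, mucin, ERK and sterol lists lie at the low end and the metallothionein, squamous and aldo-keto lists at the high end.

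Outside the lists, the lowest ratios among genes with at least 20 CPM included L1CAM, a neural adhesion molecule, at 3.595 CPM in PC-9ER and 81.1 CPM in PC-9, and the neurotensin receptor NTSR1, at 2.84 CPM in PC-9ER and 61.4 CPM in PC-9. The calpain CAPN8 was at 0.812 CPM in PC-9ER and 21.4 CPM in PC-9, the cystatin CST4 at 1.74 CPM in PC-9ER and 28.7 CPM in PC-9, and NWD1 at 1.10 CPM in PC-9ER and 30.5 CPM in PC-9. At the high end stood PDZK1IP1, a small membrane cargo protein, with 477 counts (27.7 CPM) in PC-9ER and 9 counts (0.533 CPM) in PC-9, 51.9-fold higher (27.1 to 114). The atypical chemokine receptor ACKR3 was at 32.9 CPM in PC-9ER and 1.48 CPM in PC-9, FNDC4 at 35.9 CPM in PC-9ER and 1.89 CPM in PC-9, and GLIPR1 at 22.9 CPM in PC-9ER and 1.18 CPM in PC-9. Complete switches were rare: 3 genes had at most 3 counts in PC-9ER and at least 5 CPM in PC-9 (MUC5B and, named after their values were seen, ADCY5 and SUSD2), and 4 had the reverse (LRP3, CGB8, NLRP7 and SULT1A4, also named after their values were seen). CGB8 and SULT1A4 have near-identical copies, so their counts are uncertain.

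Sharing with the other ER pair was partial. Of the 531 genes higher in PC-9ER that were measured in both pairs, 148 (27.9%) were at least 2-fold higher in HCC827ER than in HCC827 too, which is 10.4% of the 1421 higher there, and 115 (21.7%) were at least 2-fold lower. Of the 735 lower genes, 399 (54.3%) were at least 2-fold lower in HCC827ER, 11.2% of the 3568 lower there, and 86 (11.7%) were at least 2-fold higher. The background of that pair, 11.3% higher and 28.3% lower, stands beside these shares. It covers all 12597 genes measured there and not only those measured in both pairs. Ratios of both pairs fell with transcript length, and both ER lines are deposited in the same table. These shares were not length-centred, and the part of length or table in them was not tested.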

How the data were processed

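The authors deposited 2 tables of expected counts per gene, and 13.2% to 14.3% of the values per library are not whole. Per the submitters' processing notes, reads were aligned with HISAT2 2.0.4 to GRCh38.p13 and Cuffdiff was used. The program behind the counts, and whether it used strand, are not given in the sources used here, so overlapping and antisense genes are uncertain. Libraries came from a stranded TruSeq Ribo-Zero kit, per the labels' protocols. Of 19 replication-dependent histone genes 14 were under the 1 CPM filter. Whether the counts bear out that protocol was not tested. PC-9ER is in the second table (16306 genes) and PC-9 in the first (16854), and the 16000 genes in both were used.

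Here the counts were rounded and scaled to CPM over the shared genes. Log2 ratios carry a prior count of 2. Counting intervals are exact conditional binomial intervals at 95% (SciPy 1.17.1), and reads carry no molecular identifiers. The script was tested on simulated data. TMM factors (edgeR 4.0.16) and size factors (DESeq2 1.42.0, R 4.3.3) served as alternatives only. Transcript lengths and gene positions are from GENCODE 29, using the longest protein-coding transcript. Promoters are from RefSeq, whose starts differ from the outer ends of the GENCODE spans. The printed promoter windows therefore lie partly or wholly inside those spans.

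The members and the 58 lists were chosen with earlier results of these data known. Named genes were EGFR, YAP1, WWTR1, MET and TFF3, the 12 highest and 12 lowest ratios at 20 CPM or more, the 6 largest gains and losses in CPM, list members past 2-fold with at least 5 CPM, and any member of the EGFR, ERK and bypass receptor lists. Other list members and markers named as examples were chosen after their values were seen. Some list members are counted in the list totals but not reported or drawn by name here.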

Additional observations from a re-analysis of the deposited data

Results flagged for a closer look

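Some genes named in the report were at least 2-fold different in opposite directions in the ER pairs, with 20 CPM or more in each. Values are log2 ratios of CPM, PC-9ER over PC-9 and then HCC827ER over HCC827, and the difference between the pairs was not tested, since each line has 1 library. The ERBB ligand EREG was at 1.25 in the PC-9ER pair and -2.78 in the HCC827ER pair. The dividing-cell genes BIRC5 (1.22 and -1.77) and UBE2C (1.17 and -1.46) were higher in PC-9ER and lower in HCC827ER. The repressor SNAI2 was at 2.22 and -1.0, the IGF-binding protein IGFBP3 at 1.51 and -2.81, and CYP1B1 at 2.01 and -1.54. The opposite order was seen for the sterol reductase TM7SF2 (-2.55 and 3.21), the aldolase ALDOC (-1.58 and 1.73), ICAM1 (-1.61 and 1.52) and complement C3 (-1.14 and 5.0). In the HCC827ER pair the background was 11.3% of genes higher and 28.3% lower.

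PSTPIP1, an adaptor of the cytoskeleton, is listed only in the second table, where PC-9ER had 17 counts. That is above the 3 counts that a count of 0 allows, and no value is given for PC-9 here, so it entered no comparison.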

How the results depend on the processing

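TMM scaling, size factors, a prior count of 0.5 and unrounded counts changed no list median or gene count by the limits used (0.58 on the log2 scale, 1.5-fold for counts). The median log2 ratio of all genes was 0.03, and -0.001 with TMM scaling, 0.009 with size factors and 0 after length-centring, an alternative chosen after seeing the data. The number of genes at least 2-fold higher in PC-9ER was 421 with at least 5 CPM in 1 line. The 4-fold threshold gave 149 higher and 213 lower genes. With no filter beyond 1 count, list medians were 0.23 for aldo-keto reductases, -1.53 for CEACAM genes, 0.44 for ERBB ligands, -0.30 for lung lineage markers and -1.48 for mucins and trefoil factors, and 2 turned round, Notch at 0.055 and fibroblast markers at -0.59. This setting adds genes of a few counts. ERBB ligands were at 1.05 with at least 5 CPM, and mucins at -1.53 with a prior count of 10. Of 204 named genes none turned round. The log2 ratio left its counting interval for 95 of them after length-centring, 8 with TMM scaling and 4 each with size factors and a prior count of 10. That count did not use the 2-fold size, and the interval is narrow for genes of many counts. The highest 25-gene window median, 0.83, was 0.80 with TMM scaling, 0.56 after length-centring and 0.54 over 51 genes, and the lowest, -0.95, was -0.98, -0.85 and -0.65 in the same order. No paired analysis was possible because each line has 1 library, and for the same reason no replicate could be left out. Below about 3 counts, or 0.174 CPM in PC-9ER and 0.178 CPM in PC-9, a gene cannot be told from absent.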

Other observations

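Neighbouring genes along the chromosomes differed together in a few stretches. In windows of 25 measured genes in chromosome order, the median log2 ratio ran between -0.95 and 0.83, and 95% of windows lay between -0.45 and 0.37. The lowest was on chromosome 2 between IL1RL1 and LIMS4, where 21 of 25 genes had a ratio below 0 (-0.85 length-centred). Low stretches on chromosome 18 were MEP1B to RNF165 (-0.83, with 23 of 25 genes below 0) and TNFRSF11A to MBP (-0.78), and 1 on the X chromosome ran from ZBTB33 to RAP2C (-0.80). The highest was also on the X chromosome, from KLHL4 to TCEAL1, at 0.83 (0.56 length-centred), followed by PNP to C14orf93 on chromosome 14 at 0.64. By whole chromosome the lowest medians were those of chromosome 18 at -0.29 (-0.13 length-centred) and chromosome 22 at -0.23 (-0.33 length-centred), and the highest that of chromosome 19 at 0.12 (0.03 length-centred). Genes in a window are not independent, and these windows were not set against a test.

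Of the genes listed in 1 table only, 854 were in the first, of which 33 had over 3 counts in PC-9, and 306 in the second, of which 13 had over 3 counts in PC-9ER. The first group was led by LRATD1, with 68 counts in PC-9. These genes have no value for the other line here.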
